A study of Mus musculus with 9 samples.

Results

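The arrestin family of mouse squamous cell carcinoma (SCC) cells was examined across 3 FAK backgrounds by RNA-seq. The genes were the beta-arrestins Arrb1 and Arrb2, and the alpha-arrestins Arrdc1, Arrdc2, Arrdc3, Arrdc4 and Txnip, a family selected on the measured level of Arrb1, which was higher in FAK-kd than in FAK-/- cells. Of the 7 genes, 6 have a row among the 19044 gene identifiers of the count table, and all 6 passed the filter on low counts that 12235 identifiers passed. Arrdc4 (ENSMUSG00000042659) has no row among them and was not analysed here. Since the level of Arrb1 in FAK-kd and FAK-/- cells chose the family, its values are given without a test in every comparison, and no member is tested in FAK-kd against FAK-/- cells.

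The cells came from SCCs raised by chemical carcinogenesis with dimethylbenzanthracene and a phorbol ester in FVB mice with K14CreER and FAK flox/flox alleles. FAK, encoded by Ptk2, was deleted in culture with 4-hydroxytamoxifen, which gave the FAK-/- cells. Wild-type FAK (FAK-WT) or kinase-deficient FAK (FAK-kd) was then stably expressed from a retrovirus in a FAK-/- clone, so both rest on 1 clone and on the same deletion. The cells that expressed these constructs were selected with hygromycin, so the infection and the drug selection cannot be told apart from the return of FAK in comparisons with FAK-/- cells. Each group had 3 biological replicates. The sources used here do not say whether the FAK-/- cells carried an empty vector.

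Ptk2 was 21.6 ± 1.93 CPM (counts scaled to library size, TMM-normalized, mean ± SD, n = 3 throughout) in FAK-/-, 215 ± 1.92 in FAK-WT and 163 ± 11.5 in FAK-kd cells, so the labels and the FAK level went together. FAK-WT exceeded FAK-kd cells in Ptk2 by a log2 fold change of 0.40 (SE 0.08, edgeR adjusted p = 0.00163). FAK-WT replicate 1 stood apart in depth, with 779755 counts against 25304994 to 37264636 in the other 8 libraries. A floor of 3 counts is 3.78 CPM in that library and 0.0798 to 0.118 CPM in the others, and covers counting error only. Epithelial identity was not visible in the markers. Krt5, Krt14, Krt6a, Krt8, Krt18 and Cdh1 summed to between 0.276 and 0.480 CPM in FAK-/-, 0.719 and 1.26 in FAK-WT, and 0.966 and 1.77 in FAK-kd libraries, while Trp63 and Epcam had no row. The 1.26 is the shallow FAK-WT replicate 1 and rests on 1 count of Krt8. Fibroblast markers, mostly Pdgfra, summed to 31.7 to 36.3 CPM in FAK-/-, 16.4 to 17.6 in FAK-WT and 25.1 to 36.5 in FAK-kd libraries. In FAK-WT against FAK-/- cells Pdgfra fell (log2 fold change -1.44, edgeR adjusted p = 1.35e-05), while Dcn was higher (2.24, edgeR adjusted p = 0.0426, libraries overlapping) and Col1a2 had means of 4.90 against 2.50 CPM (edgeR adjusted p = 0.0584). Col1a1 was lower, with means of 0.509 in FAK-WT (0.764 without replicate 1) against 1.16 CPM in FAK-/- cells, and Lum had no row. Endothelial markers, mostly Cdh5, summed to 1.26 to 2.05 CPM in FAK-WT, 0.300 to 0.473 in FAK-/- and 0.210 to 0.322 in FAK-kd libraries. The 1.26 is again 1 count in FAK-WT replicate 1. Cdh5 was past the threshold in both FAK-WT comparisons. Pecam1 and Kdr were at most 0.220 CPM on average in any group, and neither had its highest mean in FAK-WT cells. Leukocyte markers summed to at most 3.39 CPM. The part of these marker levels in the results was not tested. In bulk RNA, fewer cells that express a gene and less of its RNA per cell cannot be told apart.

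Beta-arrestins bind activated, phosphorylated G protein-coupled receptors (GPCRs), uncouple them from G proteins, link them to clathrin and AP-2 for internalization, and serve as scaffolds for kinases and phosphodiesterases. Alpha-arrestins share the arrestin fold but mostly carry PPxY motifs, through which they recruit NEDD4-family ubiquitin ligases to membrane proteins. Txnip is the alpha-arrestin that binds thioredoxin and lowers glucose uptake, and its transcription is known to respond to glucose through the MondoA and Mlx factors at paired carbohydrate response elements.

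The 250 bases before an annotated start are printed for Txnip and Arrdc3, the alpha-arrestins with the highest and the lowest fold change in FAK-WT against FAK-/- cells. They are from RefSeq (GRCm38.p6), read 5′ to 3′ on the gene's strand, for Txnip chr3:96557707-96557956 and for Arrdc3 chr13:80883134-80883383, both on the + strand. Capitals mark matches to the motifs searched on both strands, which were CACGNG repeated after 5 bases (a form of paired carbohydrate response element), GTAAACA (a forkhead factor motif), CCAAT and TGANTCA (an AP-1 motif).
Txnip: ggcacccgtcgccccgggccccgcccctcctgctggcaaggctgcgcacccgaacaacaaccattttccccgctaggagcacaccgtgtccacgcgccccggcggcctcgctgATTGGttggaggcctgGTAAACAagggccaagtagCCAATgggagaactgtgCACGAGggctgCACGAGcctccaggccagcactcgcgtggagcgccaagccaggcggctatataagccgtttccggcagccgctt
Arrdc3: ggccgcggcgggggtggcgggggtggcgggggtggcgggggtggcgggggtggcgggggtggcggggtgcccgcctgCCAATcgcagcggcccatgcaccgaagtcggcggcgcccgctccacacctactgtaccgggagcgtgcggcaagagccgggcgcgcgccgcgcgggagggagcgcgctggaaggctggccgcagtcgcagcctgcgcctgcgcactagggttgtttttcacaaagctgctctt
The Txnip window held the paired CACGNG motif, as CACGAG and CACGAG with its first base at -85 from the start, a GTAAACA match at -121 and CCAAT at -137 on the opposite strand and at -102. Of 32851 mouse promoter windows of this length, 15 (0.0457%) held the paired motif, 3.17% held GTAAACA, 33.8% held CCAAT and 6.75% held TGANTCA. The printed Arrdc3 window held a single CCAAT at -173, and neither printed window held TGANTCA. Arrdc3 also had windows at other annotated starts. That at chr13:80883172-80883421 held CCAAT at -211 as its only match, and that at chr13:80885845-80886094 held no match to any of the motifs. The table of windows matched 5 of the 7 genes and held no entry for Arrb1 or Arrb2. The windows of Arrdc1, Arrdc2 and Arrdc4 held no paired CACGNG match either, with 0, 3 and 6 matches to CCAAT. A match describes these letters only, and no binding was measured. Only this arrangement of the paired motif was searched, so a window without it could hold another form of the element.

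Arrb1, which encodes beta-arrestin 1, is the gene whose level chose the family, and had the widest range of the 6 measured members across the FAK backgrounds. Arrb1 (ENSMUSG00000018909, chr7:99535466-99606771 on the + strand, GRCm38) was 0.929, 0.867 and 0.832 CPM in the FAK-/- replicates, 2.52, 3.78 and 4.33 in FAK-WT, and 11.5, 10.5 and 10.4 in FAK-kd. All FAK-kd libraries lay above all FAK-WT libraries, and these above all FAK-/- libraries. The means were 0.876 ± 0.0489, 3.54 ± 0.927 and 10.8 ± 0.621 CPM. FAK-kd cells thus held 12.2-fold more Arrb1 than FAK-/- cells, a log2 fold change of 3.61 (SE 0.18). FAK-WT cells were above FAK-/- cells by 2.17 (SE 0.19) and below FAK-kd cells by 1.44 (SE 0.17, log2 fold change -1.44). FAK-WT replicate 1 had 2 counts of Arrb1, with an exact Poisson interval of 0.305 to 9.09 CPM (95%). Without that library the FAK-WT against FAK-/- value was 2.20 and the FAK-WT against FAK-kd value -1.41. The order of Ptk2, highest in FAK-WT cells, was not the order of Arrb1, highest in FAK-kd cells.

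Arrb2, the gene of the closely related beta-arrestin 2, was the more abundant beta-arrestin in all 9 libraries. Arrb2 (ENSMUSG00000060216, chr11:70432635-70440828, + strand) was 25.8, 24.998 and 30.96 CPM in FAK-/-, 17.6, 21.7 and 21.7 in FAK-WT, and 22.9, 22.8 and 22.5 in FAK-kd replicates. All FAK-WT libraries lay below the others, and the FAK-kd libraries lay between them and FAK-/-. FAK-WT against FAK-/- cells gave a log2 fold change of -0.35 (SE 0.11, edgeR adjusted p = 0.0320), short of the minimum of 1 set for a call, where a call also needs an adjusted p of 0.05 or below. In 7 of the 15 alternative fits the adjusted p was above 0.05 (up to 0.114), among them DESeq2 at 0.0552 and the fit without FAK-WT replicate 3. Against FAK-kd cells the difference was -0.09 (SE 0.11, edgeR adjusted p = 0.610), with a 95% interval of -0.32 to 0.14.

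Set side by side per kilobase of transcript (7135 bases for Arrb1-210 and 1848 for Arrb2-204), Arrb1 made up 0.835% ± 0.125 of the beta-arrestin sum in FAK-/-, 4.26% ± 0.676 in FAK-WT and 10.9% ± 0.481 in FAK-kd cells. The sum itself was 14.9 ± 1.74, 11.5 ± 1.40 and 13.8 ± 0.208 CPM per kilobase. The sums of FAK-/- and FAK-kd libraries overlapped, with 13.6 to 16.9 and 13.6 to 14.0 CPM per kilobase, while FAK-WT libraries ranged from 9.89 to 12.3. The order of the shares follows from the level of Arrb1 that chose the family and is a description. The lengths are those of the longest of 3 (Arrb1) and 5 (Arrb2) coding transcripts in the GENCODE basic set. Which transcripts the cells used was not measured, and the size of the shares depends on these lengths. Of the 31-base words of the transcripts, 1.17% (Arrb1) and 1.12% (Arrb2) also occur in other genes.

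**Figure D1:**
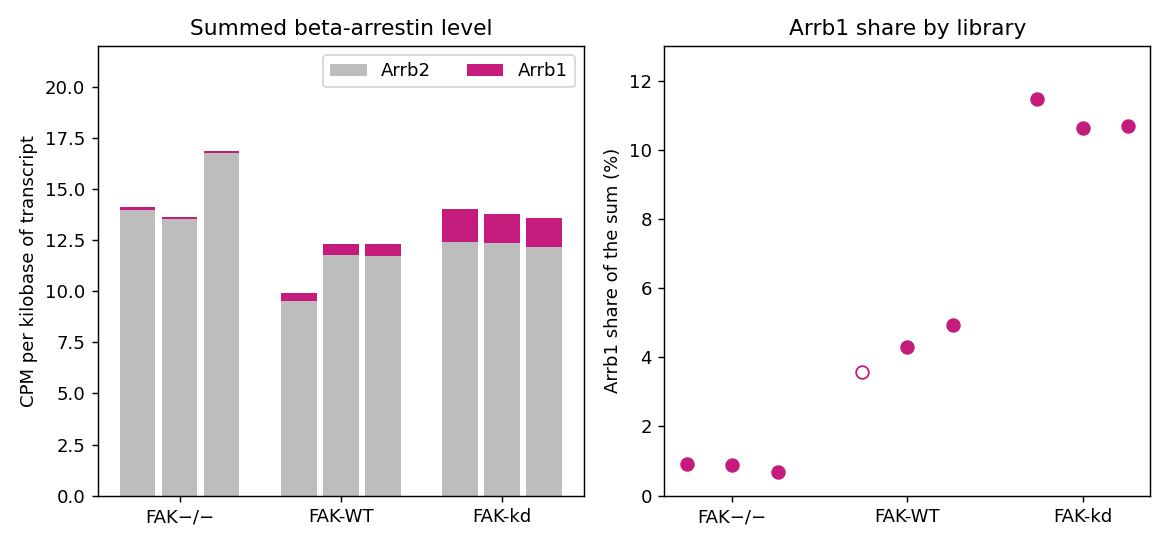
Left, Arrb2 (grey) and Arrb1 (magenta) stacked in CPM per kilobase of transcript, 1 bar for each of the 9 libraries. Right, the percent of that sum from Arrb1, 1 point per library, with FAK-WT replicate 1 open. The share lies at 0.692 to 0.923% in FAK-/-, 3.57 to 4.92% in FAK-WT and 10.6 to 11.5% in FAK-kd libraries.

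Txnip was the single tested member past the threshold. Txnip (ENSMUSG00000038393, chr3:96557957-96561883, + strand) was 1.32, 1.54 and 1.41 CPM in FAK-/-, 7.55, 4.55 and 4.99 in FAK-WT, and 4.17, 2.79 and 3.31 in FAK-kd replicates. All FAK-WT libraries lay above all FAK-kd libraries, and these above all FAK-/- libraries. Txnip rose 3.53-fold in FAK-WT against FAK-/- cells (log2 fold change 1.82, SE 0.24, edgeR adjusted p = 6.58e-05), and the value stayed between 1.75 and 1.95 in the 15 alternative fits. The highest library, FAK-WT replicate 1, rests on 6 counts, and without it the value was 1.75 (edgeR adjusted p = 6.63e-05). FAK-WT was above FAK-kd cells by 0.55 (SE 0.23, edgeR adjusted p = 0.125, 95% interval 0.06 to 1.05), which did not pass. FAK-kd was above FAK-/- cells by 1.27 (SE 0.23), given without a test. An antisense gene, Gm15441, overlaps Txnip on the opposite strand and has no row. The library kit did not mark strand, so reads from where the pair overlaps cannot be told apart. Opposite-strand genes also overlap Arrb1 (Gm44914) and Arrdc3 (1700023H06Rik), with the same limit.

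Arrdc3, a regulator of beta-adrenergic receptor trafficking, was the most abundant alpha-arrestin and was lowest with FAK-WT. Arrdc3 (ENSMUSG00000074794, chr13:80883384-80896042, + strand) was 69.5, 69.8 and 55.2 CPM in FAK-/-, 40.3, 31.6 and 31.7 in FAK-WT, and 67.0, 55.5 and 51.8 in FAK-kd replicates. Every FAK-WT library lay below every other library, and the FAK-/- and FAK-kd libraries overlapped. FAK-WT against FAK-/- cells gave a log2 fold change of -0.99 (SE 0.13, edgeR adjusted p = 3.97e-05), just short of the fold minimum. The value went past it without FAK-/- replicate 3 (-1.12) or without FAK-WT replicate 1 (-1.03). Against FAK-kd cells it was -0.84 (SE 0.13, edgeR adjusted p = 0.000192). FAK-kd against FAK-/- cells differed by -0.16 (SE 0.11), given without a test.

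Arrdc1, whose protein buds from the plasma membrane in vesicles with the help of ESCRT proteins, had the same order at a lower level. Arrdc1 (ENSMUSG00000026972, chr2:24925352-24935252, - strand) was 10.4, 10.2 and 12.3 CPM in FAK-/-, 6.29, 8.01 and 7.12 in FAK-WT, and 9.59, 11.2 and 10.7 in FAK-kd replicates. The FAK-WT libraries again lay below all others. The log2 fold change was -0.55 against FAK-/- (SE 0.13, edgeR adjusted p = 0.00910) and -0.49 against FAK-kd cells (SE 0.13, edgeR adjusted p = 0.0181), both short of the fold minimum. Without FAK-WT replicate 3 the adjusted p rose to 0.102 and 0.166, and DESeq2 gave 0.0607 against FAK-kd cells. Of the 15 alternative fits, 1 was above 0.05 against FAK-/- and 5 against FAK-kd cells.

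Arrdc2 had the lowest mean normalized count of the 6 measured members, at 25.2. It lay above the floor of 3 counts in every library except FAK-WT replicate 1. Arrdc2 (ENSMUSG00000002910, chr8:70835129-70839720, - strand) was 1.02, 1.42 and 1.44 CPM in FAK-/-, 0, 1.14 and 1.10 in FAK-WT, and 1.47, 1.38 and 1.58 in FAK-kd replicates. The 0 is FAK-WT replicate 1, where the floor of 3 counts is 3.78 CPM and the exact Poisson interval of a count of 0 reaches 4.64 CPM (95%). No difference was detectable at this depth, with -0.27 against FAK-/- (SE 0.33, edgeR adjusted p = 0.626, 95% interval -0.97 to 0.44) and -0.46 against FAK-kd cells (SE 0.33, edgeR adjusted p = 0.401, interval -1.16 to 0.24).

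**Figure D2:**
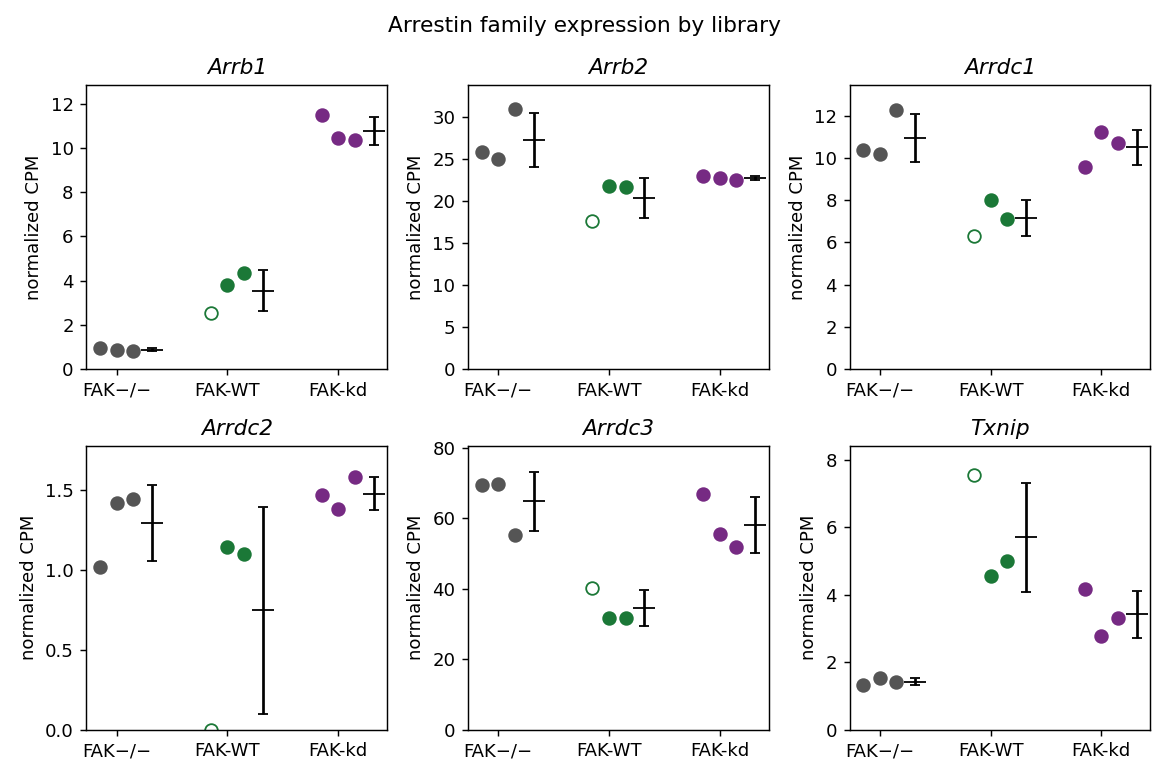
Normalized CPM of the 6 measured arrestin genes, 1 point per library in replicate order, with the mean and SD of each group beside the points. FAK-WT replicate 1, the shallow library, is open. Arrb1 is highest in FAK-kd (10.4 to 11.5 CPM), Txnip in FAK-WT (4.55 to 7.55), and Arrb2, Arrdc1 and Arrdc3 are lowest in FAK-WT.

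Counted together, 1 of the 5 tested members was past the threshold in FAK-WT against FAK-/- cells, Txnip, where 5.38% of all genes were. Against FAK-kd cells 0 of 5 were by edgeR and 0 by DESeq2, where 5.26% of all genes were past it. At an unadjusted p under 0.05 there were 3 of the 5 members and 28.5% of all genes. With the fold minimum dropped, 1 member was higher and 3 lower than in FAK-/- cells (8.01% and 9.96% of all genes), and 2 were lower than in FAK-kd cells (10.2%). Libraries showed no overlap between groups for 4 of 5 members against FAK-/- and 5 of 5 against FAK-kd cells. Of the genes that passed the filter on low counts, 42.5% and 47.7% likewise showed no overlap. The exact permutation test of 3 libraries against 3 cannot go below p = 0.1, which it gave in all of these cases. The median log2 fold change of the 5 was -0.35 against FAK-/- and -0.46 against FAK-kd cells, and that of all genes 0. The 2 comparisons share the FAK-WT libraries. In FAK-kd against FAK-/- cells, where the rule applied, Arrb1 is left out of the count. Of the other 5 members 2 did not overlap, Arrb2 and Txnip, beside 35.3% of genes that passed the filter.

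**Figure D3:**
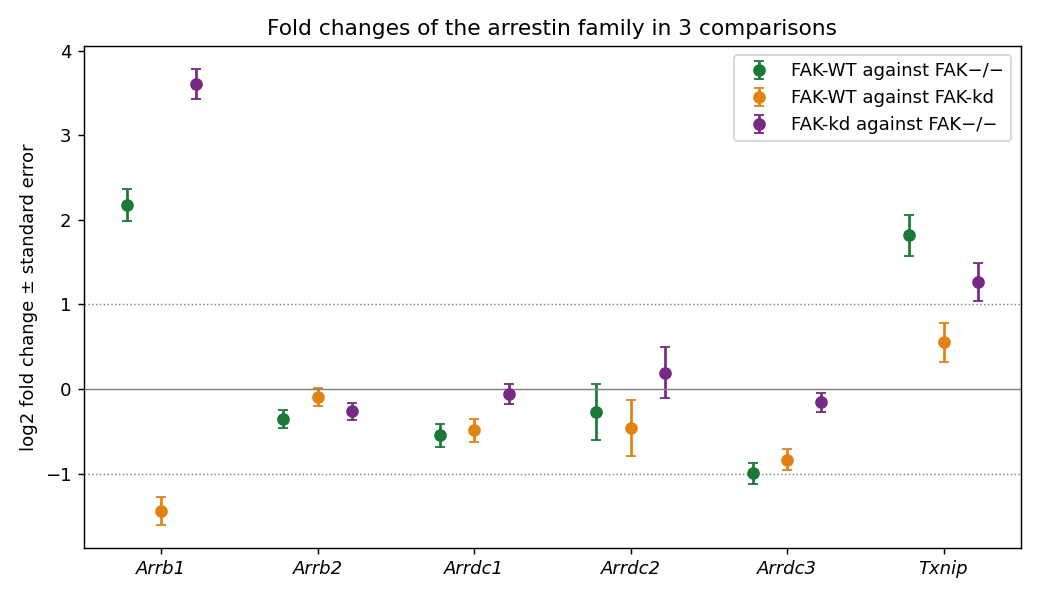
Log2 fold change with standard error of the 6 measured arrestin genes in 3 comparisons from 1 edgeR fit, with dotted lines at the fold minimum of 1 in either direction. Arrb1 runs from -1.44 to 3.61 and Txnip from 0.55 to 1.82, while Arrb2, Arrdc1, Arrdc2 and Arrdc3 lie between -0.99 and 0.19.

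In levels per kilobase of the longest coding transcript, Arrb2 and Arrdc3 stood highest in each group, followed by Arrdc1. The order of genes within a group depends on the lengths taken. The libraries of Arrb2 and Arrdc3 overlapped in FAK-/- cells. In FAK-WT cells Arrb2 (11.8 and 11.7 CPM per kilobase) lay above Arrdc3 (7.70 and 7.73) in replicates 2 and 3, and the shallow replicate 1 had 9.54 and 9.82. In FAK-kd cells Arrdc3 (12.6 to 16.3 CPM per kilobase) lay above Arrb2 (12.2 to 12.4). In FAK-/- cells Arrdc2 (0.549 ± 0.101 CPM per kilobase) and Txnip (0.503 ± 0.0390) overlapped and Arrb1 was lowest at 0.123 ± 0.00685. In FAK-WT cells Txnip (2.02 ± 0.574) came before Arrb1 (0.496 ± 0.130) and Arrdc2 (0.317 ± 0.275), which overlapped. In FAK-kd cells Arrb1 (1.51 ± 0.0871) and Txnip (1.21 ± 0.247) overlapped, above Arrdc2 (0.627 ± 0.0432).

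The genes most like a member were taken as the 3 with the highest Pearson correlation of log2 CPM over the 9 libraries, among genes whose mean normalized count reached 100. The libraries share depth and normalization, so r is a description. For Arrb1 they were Eif3d (r = 0.988), Tnfrsf10b (0.977) and Adcy7 (0.969). Adcy7, an adenylyl cyclase, was 51.5, 63.7 and 92.3 CPM in FAK-/-, FAK-WT and FAK-kd cells, and Eif3d, a translation initiation subunit, 341, 389 and 440, so their range was far narrower than that of Arrb1. For Arrdc3 they were Gcnt4 (0.988), Tnfrsf11b (0.984) and Cpe (0.977), and Tnfrsf11b, the RANKL decoy receptor, was 24.8, 9.94 and 22.9 CPM. For Arrb2 they were Sars2 (0.987), Zbed3 (0.985) and Mbd3 (0.983). For Arrdc1 they were March9 (0.990), Bicral (0.986) and Spg7 (0.985). Txnip and Arrdc2 were below the minimum count.

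The 3 nearest genes on either side of Arrb1 and Txnip that passed the filter on low counts were looked at after the values of both were seen. In FAK-kd against FAK-/- cells the log2 fold changes beside Arrb1 were -0.31 for Rps3 (SE 0.07), -0.20 for Gdpd5 (SE 0.26) and -0.65 for Serpinh1 (SE 0.10) at lower coordinates, and -0.61 for Neu3 (SE 0.33), 0.10 for Spcs2 (SE 0.28) and -0.04 for Rnf169 (SE 0.11) at higher ones. In FAK-WT against FAK-/- cells the same 6 genes ranged from -0.30 (Gdpd5) to 0.26 (Rnf169), with 4 of them above 0, and all had an edgeR adjusted p of 0.127 or more. In FAK-WT against FAK-kd cells Serpinh1 was 0.74 (SE 0.10, edgeR adjusted p = 7.71e-05) and Rps3 0.22 (SE 0.07, edgeR adjusted p = 0.0432). The rest ran from -0.11 (Gdpd5) to 0.86 (Neu3, SE 0.34), with an edgeR adjusted p of 0.0759 or more. All of these were smaller in size than the change of Arrb1 in the same comparison. Arrb1 was chosen by its level, so this is a description only, and a change shared by the region was not tested. Beside Txnip, in FAK-WT against FAK-/- cells, the values were 0.32 for Polr3gl (SE 0.24), -0.91 for Ankrd34a (SE 0.53) and -0.14 for Lix1l (SE 0.07) on one side and 0.33 for Hist2h3b (SE 0.65), 0.58 for Hist2h3c1 (SE 0.53) and 1.20 for Hist2h2aa1 (SE 0.64) on the other. The edgeR adjusted p was 0.177 or more for these 6, and Ankrd34a and the 3 histone genes were under 1 CPM on average in FAK-WT and FAK-/- cells. In FAK-WT against FAK-kd cells Lix1l was -0.36 (SE 0.07, edgeR adjusted p = 0.000896), and the rest had an edgeR adjusted p of 0.421 or more.

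Of the genes that act with beta-arrestins, the receptors and the phosphodiesterases held those past the threshold. Among 17 measured receptors that recruit beta-arrestins, 2 rose and 2 fell in FAK-WT against FAK-/- cells, 2 rose and 1 fell against FAK-kd cells, and 1 was higher in FAK-kd than in FAK-/- cells. Of all genes, 2.32% were higher and 3.06% lower in the first of these comparisons, 2.37% and 2.89% in the second, and 0.914% were higher in FAK-kd than in FAK-/- cells, where 2.01% were past the threshold in either direction. Calcrl, a receptor for adrenomedullin and CGRP, was 1.80, 1.46 and 0.896 CPM in FAK-/-, 8.81, 14.6 and 17.0 in FAK-WT, and 1.29, 1.62 and 2.20 in FAK-kd replicates. It was higher in FAK-WT cells by 3.42 (SE 0.27, edgeR adjusted p = 2.68e-07) and 3.13 (SE 0.26, edgeR adjusted p = 5.82e-07) on the log2 scale. The endothelial marker Cdh5 was higher in the same libraries, at 0.142 ± 0.0330, 1.49 ± 0.416 and 0.0195 ± 0.0338 CPM in FAK-/-, FAK-WT and FAK-kd cells. Pecam1 did not follow it, with means of 0.220, 0.0769 and 0.188 CPM in the same order and libraries overlapping. Kdr, at most 0.0899 CPM in any library, had its highest mean in FAK-kd cells. The part of Cdh5 in the result was not tested. Bdkrb2, a bradykinin receptor, had means of 2.08 ± 0.336 in FAK-/-, 10.2 ± 1.29 in FAK-WT and 4.35 ± 0.527 CPM in FAK-kd cells. It was above FAK-/- by 2.35 (SE 0.18, edgeR adjusted p = 2.76e-07) and above FAK-kd cells by 1.30 (SE 0.17, edgeR adjusted p = 7.25e-05). FAK-kd exceeded FAK-/- cells by 1.05 (SE 0.18, edgeR adjusted p = 0.00146), a call lost without FAK-kd replicate 1 (0.99) or FAK-/- replicate 2 (0.93).

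The receptors that fell were a chemokine and a sphingosine receptor. Cxcr4, the CXCL12 receptor, had 3 counts in all FAK-WT libraries together, against 103 in FAK-/- and 140 in FAK-kd libraries. Pooled over depth it was 27.9-fold higher in FAK-/- (95% counting interval 9.28 to 137) and 33.8-fold higher in FAK-kd cells (11.3 to 166). edgeR gave adjusted p = 1.02e-05 and 5.38e-06. S1pr1, the sphingosine-1-phosphate receptor, was 1.77, 1.26 and 1.06 CPM in FAK-/- and 0, 0.240 and 0.375 in FAK-WT replicates, a log2 fold change of -2.18 (SE 0.41, edgeR adjusted p = 0.00148). FAK-WT replicate 1 had 0 counts of Cxcr4, S1pr1 and Pde4b, which allows up to 4.64 CPM, and without it the FAK-WT against FAK-/- values were -4.66, -2.14 and -2.03.

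Among 13 kinases and phosphodiesterases that beta-arrestins scaffold, the same 2 were past the threshold and lower in FAK-WT cells in each FAK-WT comparison. Of all genes, 3.06% were lower against FAK-/- and 2.89% against FAK-kd cells. In FAK-kd against FAK-/- cells 0 of the 13 were past it. The 2 genes were cAMP phosphodiesterases. Pde4d was 2.76, 3.08 and 2.82 CPM in FAK-/-, 1.26, 1.12 and 0.923 in FAK-WT, and 4.08, 4.28 and 4.10 in FAK-kd replicates. It fell by 1.48 against FAK-/- (SE 0.23, edgeR adjusted p = 0.000308) and by 2.01 against FAK-kd cells (SE 0.23, edgeR adjusted p = 1.64e-05) on the log2 scale. Pde4b was 2.91 ± 0.196, 0.475 ± 0.450 and 1.75 ± 0.409 CPM in FAK-/-, FAK-WT and FAK-kd cells, with log2 fold changes of -2.07 (SE 0.34, edgeR adjusted p = 0.000420) and -1.34 (SE 0.34, edgeR adjusted p = 0.0107). The second was lost without FAK-kd replicate 1 (-1.11, adjusted p = 0.0512) or FAK-WT replicate 2 (-1.05, adjusted p = 0.146). Map3k5 (ASK1), a kinase that thioredoxin inhibits, was chosen after its values were seen. It was 45.1 ± 0.715, 24.0 ± 1.61 and 40.4 ± 3.68 CPM in FAK-/-, FAK-WT and FAK-kd cells, with -0.94 (SE 0.10, edgeR adjusted p = 8.04e-06) and -0.78 (SE 0.10, edgeR adjusted p = 5.16e-05), under the fold minimum.

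**Figure D4:**
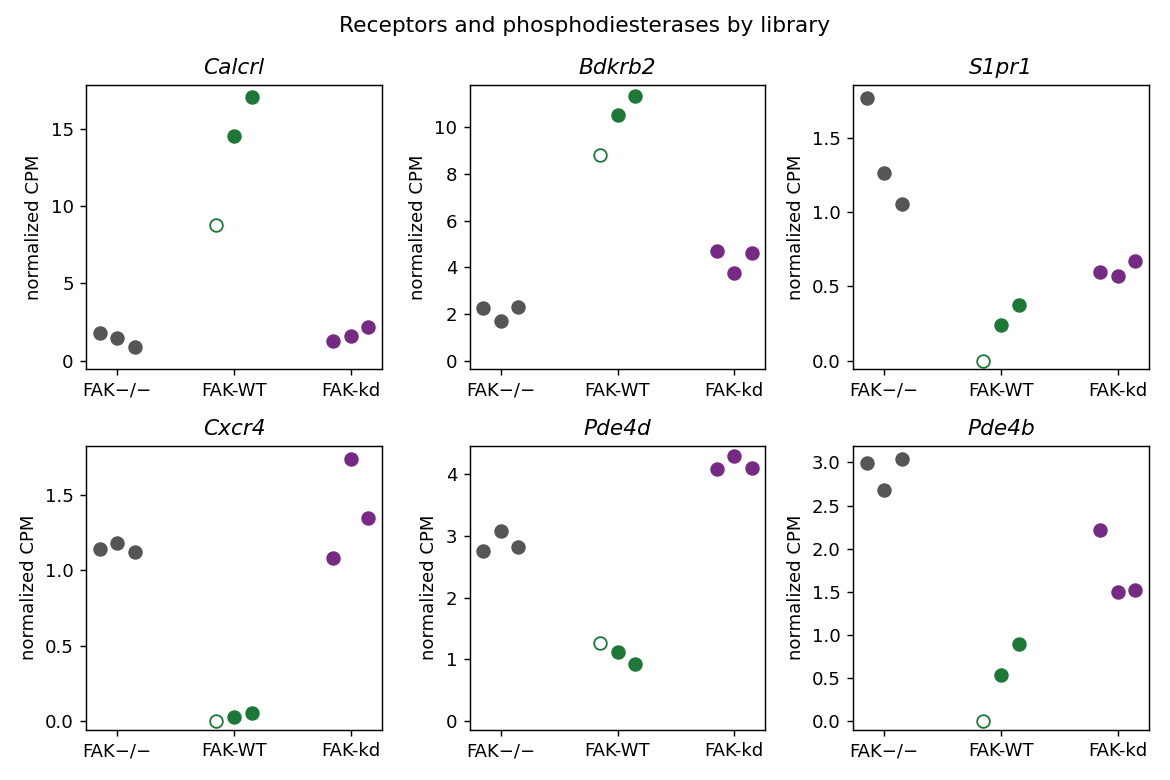
Normalized CPM of 4 receptors and 2 phosphodiesterases that act with beta-arrestins, 1 point per library in replicate order, FAK-WT replicate 1 open. In FAK-WT libraries Calcrl (8.81 to 17.0 CPM) and Bdkrb2 lie above, and Cxcr4, S1pr1, Pde4d and Pde4b below, all libraries of the other groups, where the open points of the latter 4 rest on 0 or 1 counts.

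Receptor kinases and the endocytic machinery gave no calls. Of all genes, 29% had an unadjusted p under 0.05 in FAK-WT against FAK-/-, 28.5% in FAK-WT against FAK-kd and 20.4% in FAK-kd against FAK-/- cells, the shares beside which the counts at that p in each list stand. By edgeR and by DESeq2, 0 of 6 GPCR kinases were past the threshold in any comparison, with 2, 1 and 1 at an unadjusted p under 0.05 in these comparisons, in that order. Grk6 was 170 ± 20.4, 124 ± 16.0 and 150 ± 5.02 CPM, and Grk2 122 ± 13.9, 124 ± 2.45 and 118 ± 1.10, in FAK-/-, FAK-WT and FAK-kd cells. Likewise 0 of 12 clathrin and AP-2 genes were past it, with 4, 4 and 6 at an unadjusted p under 0.05. Among them Ap2m1, the medium subunit of the AP-2 adaptor, was 454 ± 4.49, 533 ± 18.0 and 485 ± 8.42 CPM, and Cltc, the clathrin heavy chain, 292 ± 25.7, 388 ± 17.5 and 372 ± 60.9.

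Among the partners of the alpha-arrestins, few genes were past the threshold. Of all genes, 5.38% were past it in FAK-WT against FAK-/-, 5.26% in FAK-WT against FAK-kd and 2.01% in FAK-kd against FAK-/- cells. The shares of all genes at an unadjusted p under 0.05 were again 29%, 28.5% and 20.4%. Of 9 measured ubiquitin ligases, Hecw2 alone was past the threshold in both FAK-WT comparisons (adjusted p = 0.0219 and 0.0252), its libraries overlapped between groups, and DESeq2 did not call it (adjusted p = 0.170 and 0.192). At an unadjusted p under 0.05 there were 6, 6 and 3 of the 9. Of 8 measured ESCRT genes 0 were past it by edgeR or DESeq2, with 4, 2 and 1 at an unadjusted p under 0.05, and Pdcd6ip (ALIX) was 345 ± 6.41, 431 ± 4.77 and 375 ± 7.98 CPM in FAK-/-, FAK-WT and FAK-kd cells. Of 7 thioredoxin system genes 0 were past it by either tool, with 2, 4 and 2 at an unadjusted p under 0.05, and Txn1, the thioredoxin that Txnip binds, was 552 ± 57.4, 469 ± 19.98 and 533 ± 56.1 CPM. The peroxidase Prdx1, the most abundant of them, was 966 ± 106, 918 ± 36.6 and 1061 ± 69.3 CPM. Of 11 genes of glucose sensing, the glucose transporter Slc2a4 was past it in both FAK-WT comparisons, on 2 counts in FAK-WT against 21 in FAK-/- and 24 in FAK-kd libraries, and DESeq2 did not call it. At an unadjusted p under 0.05 there were 2, 5 and 3 of the 11. Hk2, which phosphorylates glucose, was chosen after its values were seen. It was 65.5 ± 3.73 CPM in FAK-WT against 36.6 ± 3.67 in FAK-/- and 34.7 ± 1.96 in FAK-kd cells, with 0.85 (SE 0.10, edgeR adjusted p = 1.88e-05) and 0.93 (SE 0.10, edgeR adjusted p = 7.84e-06), under the fold minimum. Of 6 other measured genes with an arrestin fold 0 were past it by edgeR or DESeq2, with 0, 2 and 0 at an unadjusted p under 0.05, and the retromer subunit Vps26a was 84.8 ± 11.4, 79.5 ± 2.37 and 94.1 ± 2.92 CPM in FAK-/-, FAK-WT and FAK-kd cells.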

How the data were processed

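RNA was sequenced from 9 libraries of mouse SCC cells, 3 each of FAK-/-, FAK-WT and FAK-kd cells, grouped by the sample titles. The authors pseudoaligned paired-end reads with kallisto 0.43.1 and summed transcripts by gene through tximport. The deposited values are kallisto's expected counts (estimated counts) rounded to whole numbers and not scaled to depth, for genes with a count in at least 1 library, and the transcriptome release is not given in the sources used here. Symbols and positions came from GENCODE (GRCm38), which matched 18856 of 19044 identifiers.

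edgeR 4.0.16 (R 4.3.3, TMM, quasi-likelihood test) was fitted to all genes and all 9 libraries with group as the only factor, and p-values were adjusted by Benjamini-Hochberg over 19044 genes. A gene was past the threshold when its adjusted p was at most 0.05 and its log2 fold change at least 1 in size. Alternatives were DESeq2 1.42.0, DESeq2 size factors, library size only, filterByExpr, fits of 2 groups at a time, the replicate block, a threshold without the fold minimum and leaving out each library. The steps were tested on simulated counts. Depth ranged from 779755 to 37264636 counts. The exact Poisson intervals and the intervals of pooled counts cover counting error only. The 95% intervals of log2 fold changes come from the edgeR fit, which also includes the spread between libraries. Named genes were the members, the genes of the partner lists past the threshold, or where none passed up to 2 with the highest count, and the 3 genes most like a member. Map3k5, Hk2, the neighbours of Arrb1 and Txnip and the markers with values were named after their values were seen. The members and lists were chosen with earlier results of these data known. The replicates are labelled biological, but the p-values measure only the spread between these libraries of 1 clone.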

Additional observations from a re-analysis of the deposited data

How the results depend on the processing

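The count of 1 member past the threshold in FAK-WT against FAK-/- cells was the same under both other normalizations, the filter on low counts, DESeq2, the fit of only the groups compared and the replicate block, and leaving out 1 library gave 1 to 2, the second being Arrdc3 without FAK-/- replicate 3 or FAK-WT replicate 1. The count of 0 against FAK-kd cells stayed at 0 in all of these. Without the fold minimum the counts were 4 and 2. Over all genes that change gave 3422, 3376 and 1494 calls in place of 1024, 1001 and 382 in FAK-WT against FAK-/-, FAK-WT against FAK-kd and FAK-kd against FAK-/- cells, while leaving out 1 library gave 760 to 1025, 775 to 1150 and 262 to 396. The direction of each member's log2 fold change held in all alternatives, except that Arrdc1 in FAK-kd against FAK-/- cells was -0.06 and ran from -0.11 to 0.029 when 1 library was left out, above 0 without FAK-/- replicate 3. The cause was not tested.

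Of the partner lists, without the fold minimum the GPCR kinases had 2, 1 and 1 calls in the 3 comparisons in that order, the clathrin and AP-2 genes 4, 1 and 2, the ubiquitin ligases 5, 4 and 2, the thioredoxin genes 1, 2 and 1, and the glucose-sensing genes 2, 4 and 2. The scaffolded kinases had 6 and 5 and the ESCRT genes 1 and 2 in the FAK-WT comparisons, and the receptors 6 against FAK-kd and 2 in FAK-kd against FAK-/- cells. The single ubiquitin ligase, Hecw2, was lost in both FAK-WT comparisons with DESeq2 or the replicate block (0), and against FAK-/- cells in the fit of only those groups (0). The single glucose-sensing gene, Slc2a4, was lost in both with filterByExpr, DESeq2 or the replicate block (0), and against FAK-/- cells in the fit of only those groups (0). That fit also added 1 gene of the arrestin fold against FAK-kd cells. The receptor count in FAK-kd against FAK-/- cells was 2 with library size only or filterByExpr. Leaving out 1 library gave 0 to 1 for the ligases, the glucose-sensing genes and, against FAK-kd cells, the arrestin-fold genes, 1 to 2 for the scaffolded kinases against FAK-kd cells, and 0 to 2 for the receptors in FAK-kd against FAK-/- cells.

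Replicate numbers did not pair the libraries. Deviations from the group means correlated with a mean r of -0.00768 over 9 same-numbered pairs and 0.00353 over 18 others, and the replicate block gave 941, 890 and 359 calls over all genes. FAK-WT replicate 1 cannot show genes under 3.78 CPM, which in FAK-WT cells include Arrdc2, Cxcr4, S1pr1, Pde4b and Pde4d, and Arrb1 in that library.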
